A study of Mus musculus with 6 samples.

Results

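Mex3b, Gm20750, Gm38231 and Unc5a are 4 mouse genes at which H3K9me3, trimethylated lysine 9 of histone H3, was stronger in male endothelial progenitor cells than in female cells. They were chosen by the size of that excess in the deposited tables, so their differences are given here as a description and without a test. The authors' annotation named 17 of 58511 regions for them: 6 for Mex3b, 2 for Gm20750, 4 for Gm38231 and 5 for Unc5a. A further 29 regions lay within 100 kb of these 17 and carried another gene's name. These neighbours were chosen by position alone and were tested.

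The libraries were made by CUT&Tag, in which an antibody guides the Tn5 transposase to the mark. The cells were Sca-1+/CD31+ endothelial progenitor cells (EPCs) grown from bone marrow of C57BL/6 J mice 8 weeks old. There were 2 libraries each from males (M-EPC), females (F-EPC) and females ovariectomized at about 35 days of age (OVX-EPC). The study set cells aside in duplicate without saying that these came from separate animals, so an error here measures the spread between libraries, which may be technical.

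The libraries held 288353 to 573821 reads in regions. F-EPC replicate 1 had no reads in the table after chromosome 16:30557137 and F-EPC replicate 2 none after chromosome 3:110808853, in an order that runs from chromosome 1 to 10 and onwards before chromosome 2. Mex3b, on chromosome 7, therefore had no usable F-EPC library, Gm20750, on chromosome 3, had only replicate 2, and Gm38231 and Unc5a, on chromosomes 10 and 13, had both. Regions of the Y-linked gene Kdm5d drew 13 and 12 reads from the male libraries and 0 from each ovariectomized one, which fits their labels. Of the genes that define the sorted cells, Pecam1 (CD31) had 4 regions and Ly6a (Sca-1) had 0. A mark of silent chromatin does not measure expression, so these regions do not check the cell type. In bulk cells, a mark carried by fewer cells and less of the mark in each cell cannot be told apart.

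H3K9me3 is laid down by SUV39H and SETDB1 methyltransferases and is bound by HP1 proteins, and it is known for compact, silent chromatin over repeats and some genes. Mex3b encodes an RNA-binding protein with KH domains and a RING finger, one of the Mex3 family of post-transcriptional regulators. Unc5a encodes a transmembrane receptor for netrins, secreted cues that guide axons and that also act on endothelial cells through related receptors. Gm20750 is a long intergenic non-coding RNA gene, and Gm38231 a short non-coding locus that GENCODE M21 lists in its TEC class.

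For each gene, the region with the largest mean M-EPC difference is called its lead region. All coordinates are mm10. The Mex3b lead region, chr7:82869538-82869937, lay wholly in the coding sequence of Mex3b, with its centre 2404 bp past the start site. The Unc5a lead region, chr13:55003203-55003830, lay 53792 bp into the gene and ended 2188 bp before the gene's end, and 66.4% of it was coding sequence. The authors' annotation called both promoters. At Unc5a the label followed from the start of a short transcript 164 bp from the region's centre, and the first start site of the gene lay far upstream. The Gm38231 lead region, chr10:37130855-37131254, was intergenic. It lay 764 bp past the end of Gm38231, which spans 347 bp, and 2120 bp from the 3′ end of Marcks, which encodes an actin-binding substrate of protein kinase C and for which no region was named. The Gm20750 lead region, chr3:52909978-52910377, overlapped an exon over 16.8% of its length, the rest being intronic.

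The middle 300 bases of each lead region are shown because the 4 regions differ widely in CpG content. They were read from the plus strand of GRCm38.p6, 5′ to 3′, with every CpG in capitals, at chr7:82869588-82869887, chr3:52910028-52910327, chr10:37130905-37131204 and chr13:55003367-55003666.
Mex3b: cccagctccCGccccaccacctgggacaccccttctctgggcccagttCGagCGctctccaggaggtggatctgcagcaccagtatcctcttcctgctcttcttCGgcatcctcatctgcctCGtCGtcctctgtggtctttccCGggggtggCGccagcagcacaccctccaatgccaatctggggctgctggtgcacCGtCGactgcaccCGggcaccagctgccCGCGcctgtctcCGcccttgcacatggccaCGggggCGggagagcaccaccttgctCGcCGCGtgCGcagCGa
Gm20750: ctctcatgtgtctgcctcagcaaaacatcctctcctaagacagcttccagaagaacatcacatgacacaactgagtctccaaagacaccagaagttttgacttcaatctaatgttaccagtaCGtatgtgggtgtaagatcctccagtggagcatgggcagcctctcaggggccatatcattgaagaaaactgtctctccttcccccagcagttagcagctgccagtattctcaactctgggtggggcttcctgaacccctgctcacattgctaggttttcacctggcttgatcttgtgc
Gm38231: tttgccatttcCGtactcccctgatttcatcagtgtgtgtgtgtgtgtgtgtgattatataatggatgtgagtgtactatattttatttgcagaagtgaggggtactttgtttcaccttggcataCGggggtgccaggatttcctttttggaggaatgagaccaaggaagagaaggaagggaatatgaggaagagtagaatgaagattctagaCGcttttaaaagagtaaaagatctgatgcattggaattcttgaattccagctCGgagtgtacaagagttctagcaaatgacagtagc
Unc5a: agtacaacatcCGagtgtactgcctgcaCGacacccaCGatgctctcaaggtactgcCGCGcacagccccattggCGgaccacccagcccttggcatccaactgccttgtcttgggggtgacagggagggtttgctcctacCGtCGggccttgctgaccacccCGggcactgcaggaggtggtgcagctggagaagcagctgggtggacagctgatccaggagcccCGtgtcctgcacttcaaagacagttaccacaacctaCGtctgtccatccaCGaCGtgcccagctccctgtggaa

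These stretches held 21 CpGs at Mex3b, 13 at Unc5a, 4 at Gm38231 and 1 at Gm20750. Over the whole lead regions GC content was 66.8% at Mex3b, 61.9% at Unc5a, 48.8% at Gm20750 and 42.2% at Gm38231, against a median of 48.5% over all 58511 regions. Among all regions, these GC contents stood at percentiles 95.9 for Mex3b, 92.2 for Unc5a, 51.3 for Gm20750 and 12.9 for Gm38231.

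At the Mex3b lead region M-EPC held 95 and 88 reads, OVX-EPC 14 and 7. Scaled to a common depth over the 6 libraries, this was 99.8 ± 20.2 normalized reads in M-EPC (SD, n = 2) and 11 ± 5.57 in OVX-EPC (SD, n = 2), a ratio of 9.07. The groups did not overlap. The difference of the log2 values was 3.08 with a standard error of 0.31, and its size is how the gene came to be chosen. Among 16931 regions tested against OVX-EPC it ranked 9 by size. The lead regions of Unc5a, Gm38231 and Gm20750 ranked 21, 56 and 124.

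The other Mex3b regions followed in order of position. Mex3b and the non-coding gene Gm36584, on the opposite strand, start close together without overlapping. Upstream of Mex3b, near these starts, lay 2 CpG-rich regions with GC contents of 74.5% and 71.2%. The first (start 82866115) held 59 and 58 M-EPC reads against 24 and 16 for OVX-EPC, a log2 difference of 1.54 (SE 0.29). The second (start 82866938) held 35 and 35 reads against 8 and 13, a difference of 1.69 (SE 0.34). Neither pair of groups overlapped, and both differences were smaller than at the coding region that followed them.

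Downstream of the gene the reads became fewer. At start 82873324, M-EPC held 28 and 25 reads, OVX-EPC 2 and 6, a log2 difference of 2.59 (SE 0.46). At start 82882268 the reads were 12 and 18 against 4 and 12, a difference of 0.97 (SE 0.47). The groups met there in raw reads, at 12 in M-EPC replicate 1 and OVX-EPC replicate 2, and stood apart only after scaling. At start 82899969, with 8 and 14 reads against 9 and 4, the region did not pass the filter of at least 10 in 2 of the 4 libraries. Of all M-EPC reads in the 6 Mex3b regions, 38.5% lay in the lead region.

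At Gm20750 both regions held many reads. In the lead region M-EPC held 100 and 113 reads, OVX-EPC 31 and 36, or 115 ± 7.24 against 34.7 ± 2.30 normalized reads (SD, n = 2 each), a ratio of 3.31. Its log2 difference was 1.65 (SE 0.24). The second region (start 52919412) lay in an intron 9034 bp away, contained no CpG and held 190 and 199 M-EPC reads against 75 and 79 for OVX-EPC, a log2 difference of 1.34 (SE 0.21). The groups did not overlap at either region.

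F-EPC replicate 2, the only F-EPC library usable there, held 30 reads in the Gm20750 lead region and 58 in the second. On the 6-library scale this was 26.4 normalized reads (exact Poisson 95% interval 17.8 to 37.7, counting error only) and 51.1 (38.8 to 66.1). Both lay below the 2 M-EPC libraries, whose mean was 4.35 and 4.12 times as high. With 1 library no test of F-EPC was made.

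At the Gm38231 lead region M-EPC held 55 and 50 reads, F-EPC 9 and 11, OVX-EPC 12 and 14. This corresponded to 57.3 ± 12.3, 8.30 ± 1.97 and 13.5 ± 0.935 normalized reads (SD, n = 2 each). M-EPC stood above all 4 female libraries, by 1.94 on the log2 scale against OVX-EPC (SE 0.30) and by 2.65 against F-EPC (SE 0.32). These differences share the M-EPC libraries and are given side by side only. OVX-EPC minus F-EPC was 0.66 on the same scale, and those groups did not overlap either.

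In the remaining Gm38231 regions the female groups were not always alike. At start 37128705, upstream of the locus, M-EPC held 44 and 53 reads, F-EPC 30 and 19, OVX-EPC 9 and 12. Here OVX-EPC lay below F-EPC, by 0.80 on the log2 scale (SE 0.35). The M-EPC difference was 2.12 (SE 0.31) against OVX-EPC and 1.37 (SE 0.28) against F-EPC. The M-EPC difference from OVX-EPC was thus larger than at the lead region, and that from F-EPC smaller. At start 37127937 the reads were 34 and 27, 13 and 14, and 12 and 12 in the same order, with differences of 1.28 (SE 0.33) and 1.48 (SE 0.34). The female groups were close there, with OVX-EPC minus F-EPC at 0.16 (SE 0.38). At start 37088192, more than 40 kb away, no library had more than 7 reads and the region did not pass the filter.

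At the Unc5a lead region M-EPC held 36 and 33 reads, F-EPC 8 and 8, OVX-EPC 10 and 3. On the normalized scale these were 37.6 ± 7.88, 6.59 ± 0.647 and 6.85 ± 5.40 (SD, n = 2 each). M-EPC exceeded OVX-EPC by 2.42 (SE 0.42) and F-EPC by 2.34 (SE 0.35) on the log2 scale, with no overlap. Means of the 2 female groups were close here, although the OVX-EPC libraries were spread widely around theirs.

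Both other regions in the 3′ part of Unc5a were higher in M-EPC. At start 55004778 M-EPC held 29 and 25 reads, F-EPC 18 and 8, OVX-EPC 11 and 6, with differences of 1.61 (SE 0.38) against OVX-EPC and 1.47 (SE 0.36) against F-EPC. At start 54997749 they were 16 and 13, 8 and 10, and 6 and 8, with differences of 0.97 (SE 0.45) and 0.99 (SE 0.41). Near the first start site of the gene M-EPC reads were fewer. The region 2710 bp past that site (start 54951922) held 2 and 4 M-EPC reads, 8 and 4 F-EPC reads, 3 and 4 OVX-EPC reads. It was the only one of the 17 regions in which M-EPC was not above OVX-EPC, and its reads were too few to be tested. The region 7732 bp before the site (start 54941480) held 8 and 14, 10 and 8, and 8 and 3 reads. Its differences were 0.58 from F-EPC (SE 0.44) and 0.95 from OVX-EPC, the latter not tested. M-EPC stood above both female groups there, though only after scaling. The 3 regions with enough reads to be tested against OVX-EPC thus all lay in the 3′ part of the gene.

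**Figure D1:**
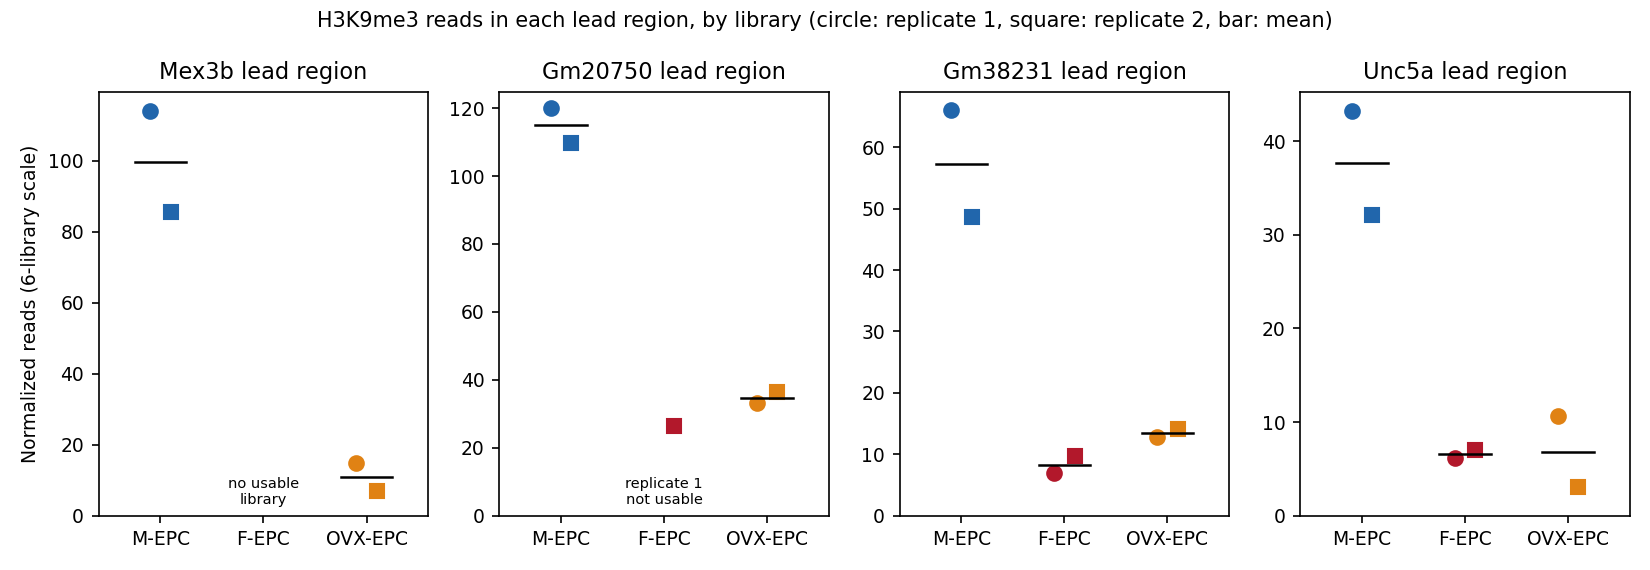
Normalized reads (y axis, from 0, common scale of 6 libraries) in the lead region of each gene, with 1 point per library, circles for replicate 1, squares for replicate 2 and a bar for the mean where both libraries are usable. M-EPC sits above every other usable library in all 4 panels, with means of 99.8, 115, 57.3 and 37.6.

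Counted together, 13 of the 17 regions passed the filter against OVX-EPC. All 13 had M-EPC above OVX-EPC without overlap, where 31% of all regions tested did, and their median log2 difference was 1.65 against 0.16 over all regions. Against F-EPC, 7 of 9 regions passed the filter and M-EPC was above without overlap in all 7, where 36% of all regions tested were, with a median of 1.47 against 0.19. Since the 4 genes were chosen on these contrasts, nothing is read from these counts. The typical region thus differed by about 0.16 and 0.19 with the authors' factors. With TMM factors, which centre the typical difference near 0 by construction, the medians were 0.008 and -0.002. Whether the 0.16 and 0.19 came from scaling was not tested. Less the median of 0.16, the lead differences against OVX-EPC were 2.92 at Mex3b, 2.26 at Unc5a, 1.78 at Gm38231 and 1.49 at Gm20750.

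**Figure D2:**
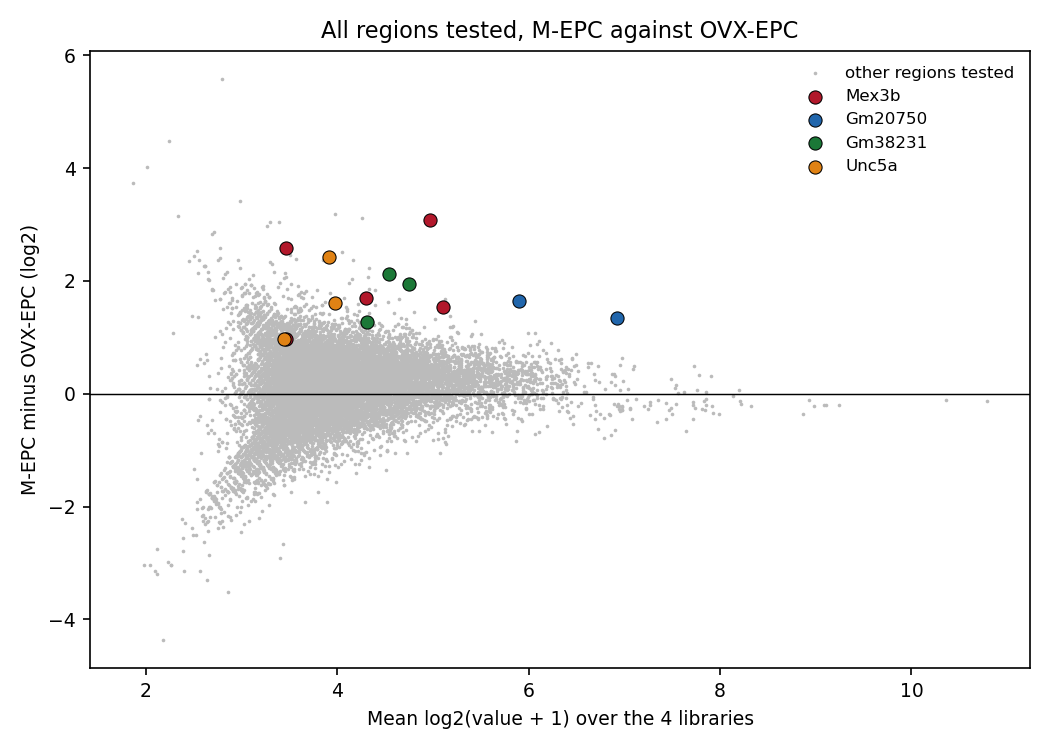
Each point is 1 of 16931 regions tested, with its mean log2(value + 1) over the M-EPC and OVX-EPC libraries on the x axis and the log2 difference M-EPC minus OVX-EPC on the y axis. The 13 regions of the 4 genes that passed the filter, in colour, lie between 0.97 and 3.08 on the y axis, above the median of 0.16.

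The neighbours were used to ask whether the excess reached beyond the regions named for the 4 genes. They cannot settle it, because the size of difference that this depth could show was not measured. Against OVX-EPC, 12 of 29 neighbours passed the filter and 11 had a positive log2 difference, with a median of 0.54 against 0.16 over all regions. A region that passes through its 2 M-EPC libraries alone is positive by that selection, among neighbours and all regions alike. Without the filter 24 of the 29 neighbours were positive, and the median over all regions was -0.01. With TMM factors 9 of 12 were positive, as were 50.7% of all regions in place of 62.3%. None (0 of 12) was called by limma at an adjusted p under 0.05, where 0.449% of all regions were. By the unadjusted p of limma, 4 of the 12 neighbours were under 0.05, where 2730 of all 16931 regions were. edgeR and DESeq2 each called 0 of the 12, where they called 0.898% and 0.0768% of all regions. Groups did not overlap, with M-EPC above, at 5 of 12 neighbours, where 31% of all regions did so.

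Against F-EPC, 10 of 18 neighbours passed the filter and all 10 had a positive difference, also with TMM factors, with a median of 0.68 against 0.19. Over all regions tested 61.9% were positive, or 49.7% with TMM factors. M-EPC stood above F-EPC without overlap at 7 of the 10 neighbours, where 36% of all regions did so. The same limit of the filter holds here. Without it 15 of the 18 were positive, and the median over all regions was -0.05. None (0) was called by limma, where 1.79% of all regions were. By its unadjusted p, 3 of the 10 were under 0.05, where 1852 of all 8139 regions were. DESeq2 called 0 and edgeR called 2 of the 10, where they called 0.0983% and 3.96% of all regions, so this count depended on the tool. Between OVX-EPC and F-EPC, 6 neighbours were tested and 0 were called by limma, DESeq2 or edgeR, where limma and edgeR each called 0.0127% of all regions and DESeq2 called 0%. None (0) of these 6 had an unadjusted p under 0.05 by limma, where 491 of all 7897 regions did.

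The 3 tested neighbours of Mex3b were intergenic. The one named for 4933406J10Rik (start 82802525) held 22 and 20 M-EPC reads against 6 and 12 for OVX-EPC. Its log2 difference of 1.21 (SE 0.39) had an limma adjusted p of 0.161, and without OVX-EPC replicate 2 it was called. The nearest neighbour on that side, named for the non-coding gene 1700010L04Rik (start 82838416), held 12 and 6 reads against 6 and 7. The nearest on the other side (start 82942256) held 18 and 18 against 17 and 5, a difference of 0.88 (SE 0.44, limma adjusted p = 0.316).

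At Gm38231 the neighbours on the Marcks side, named for the non-coding gene 5930403N24Rik, included the lowest adjusted p-value among neighbours tested against F-EPC. At start 37210219 M-EPC held 18 and 20 reads, F-EPC 7 and 11, OVX-EPC 8 and 9. The M-EPC difference was 1.38 (SE 0.39, limma adjusted p = 0.0627) against F-EPC and 1.08 (SE 0.38, limma adjusted p = 0.194) against OVX-EPC. The first of these was called without M-EPC replicate 2 and without F-EPC replicate 2. At start 37174389, with 17 and 23, 13 and 8, and 6 and 11 reads, the differences were 1.25 (limma adjusted p = 0.0721) and 1.19 (limma adjusted p = 0.170). The nearest region on that side (start 37162520) held 6 and 10, 6 and 1, and 3 and 2 reads, too few to be tested. On the other side the nearest, named for the histone deacetylase gene Hdac2 (start 37063022), held 2 and 8, 6 and 2, and 4 and 1.

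At Unc5a the nearest neighbours on the right lay at the promoter of Hk3, which encodes a hexokinase and runs towards Unc5a on the other strand. At start 55022676 M-EPC held 14 and 16 reads, F-EPC 8 and 5, OVX-EPC 4 and 8, with differences of 1.47 (SE 0.43, limma adjusted p = 0.0728) against F-EPC and 1.26 (SE 0.48, limma adjusted p = 0.220) against OVX-EPC. The region at the Hk3 start site itself (start 55021199) held 18 and 12, 14 and 10, and 7 and 12, with differences of 0.66 and 0.64 (limma adjusted p = 0.307 and 0.447). On the left, the region named for 4930526F13Rik (start 54924167) differed from OVX-EPC by -0.02 (SE 0.44). The 3 neighbours of Gm20750 held at most 10 reads in any library and none (0) passed the filter, the nearest on the left holding 5 and 0 against 5 and 1 and the nearest on the right 2 and 4 against 4 and 0. Around this gene, 2 well-covered regions thus stood among nearly empty ones.

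**Figure D3:**
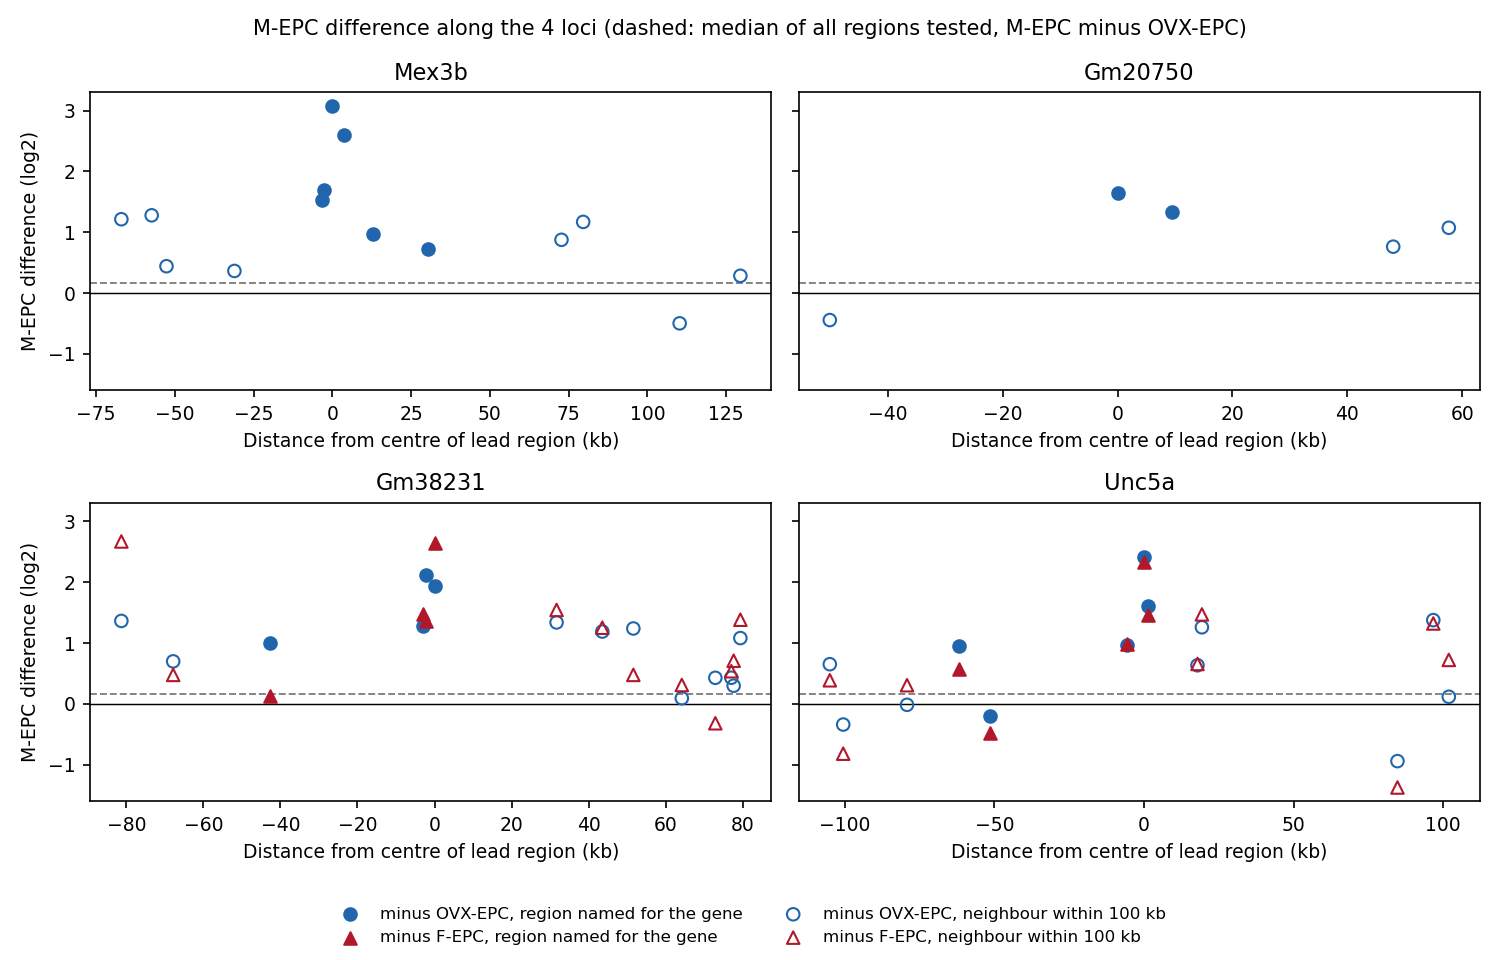
Log2 difference of M-EPC from OVX-EPC (circles) and from F-EPC (triangles) on the y axis against the distance in kb from the centre of the lead region on the x axis, filled for regions named for the gene and open for neighbours within 100 kb, including regions with too few reads to be tested. The largest differences against OVX-EPC at Mex3b and Unc5a, 3.08 and 2.42, sit at the lead region, and the open symbols scatter around smaller values and fall below 0 in places.

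Summed over all neighbours of a gene, M-EPC was higher at each locus. The sums for Mex3b were 104 and 82 M-EPC reads against 61 and 50 for OVX-EPC, a log2 difference of normalized sums of 0.75. For Gm38231 they were 90 and 142 for M-EPC, 97 and 70 for F-EPC, 63 and 67 for OVX-EPC, with differences of 0.81 from OVX-EPC and 0.85 from F-EPC. For Unc5a they were 69 and 66, 65 and 50, and 45 and 53, with differences of 0.48 and 0.64. Each of these, and the 0.86 at Gm20750 from 14 and 14 against 12 and 5 reads, had an exact two-sided permutation p of 0.3333, the smallest that 2 libraries against 2 allow. Leaving out OVX-EPC replicate 2 took the Gm20750 value to 0.18 and leaving out OVX-EPC replicate 1 took it to 1.54, and without M-EPC replicate 1 the Mex3b value was 0.46. Within 50 kb, the Gm38231 differences were larger, at 1.34 and 1.59.

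Related genes of the 2 coding genes had few regions with enough reads, and none tested was called. Apart from Mex3b, the Mex3 list had 2 regions, both promoters. Mex3c held 25 and 27 M-EPC reads against 21 and 28 for OVX-EPC, a log2 difference of 0.11 (SE 0.30, limma adjusted p = 0.894), and Mex3a had 4 and 7 against 2 and 6, too few to be tested. Mex3d had no region.

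Apart from Unc5a, the list of netrins and their receptors had 60 regions in 10 genes, of which 8 passed the filter against OVX-EPC. Their median difference was 0.22 against 0.16 over all regions, and 5 were positive, or 4 with TMM factors. Over the whole list, low regions included, 24 of 60 were positive. Among the 8, limma, edgeR and DESeq2 each called 0. By the unadjusted p of limma 0 were under 0.05, where 2730 of all 16931 regions were. The promoter region of Unc5b, the netrin receptor known from endothelial cells, held 14 and 10 M-EPC reads, 10 and 9 F-EPC reads, 6 and 14 OVX-EPC reads, a difference from OVX-EPC of 0.34 (SE 0.46). That of Rgmb, a co-receptor of the repulsive guidance family, differed by 0.11 (SE 0.41). Promoter regions of Dscam, with 6 and 5 against 4 and 4 reads, and of Ntng2, with 5 and 9 against 11 and 7, were not tested. Ntn1, which encodes netrin-1, reached 48 and 41 M-EPC reads, 47 and 38 F-EPC reads, 31 and 38 OVX-EPC reads in an intergenic region, a difference from OVX-EPC of 0.37 (SE 0.27). Against F-EPC 4 regions of the list were tested, all with positive differences and a median of 0.50 against 0.19. Low regions included, 8 of 10 were positive against F-EPC. Of the 4 tested, limma, edgeR and DESeq2 each called 0. By the unadjusted p of limma 0 were under 0.05, where 1852 of all 8139 regions were.

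GC content was set beside these differences because the typical M-EPC difference moved with it. The median over all regions was 0.03 in the decile of regions with the lowest GC content (28.8% to 43.2%) and 0.31 in the decile with the highest (66.0% to 81.8%). Regions of the 4 genes fell at both ends. In the lowest decile lay 2 Gm38231 regions and 1 Mex3b region, in the highest 3 Mex3b regions and in the one before it 3 Unc5a regions. With each library's trend on GC content removed, the lead differences from OVX-EPC were 2.94 at Mex3b, 2.33 at Unc5a, 2.01 at Gm38231 and 1.68 at Gm20750. CpG-island-like sequence, with GC content above 50% and an observed to expected CpG ratio above 0.6, made up 2 of the 17 regions, both upstream of Mex3b, against 10.6% of all regions.

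**Figure D4:**
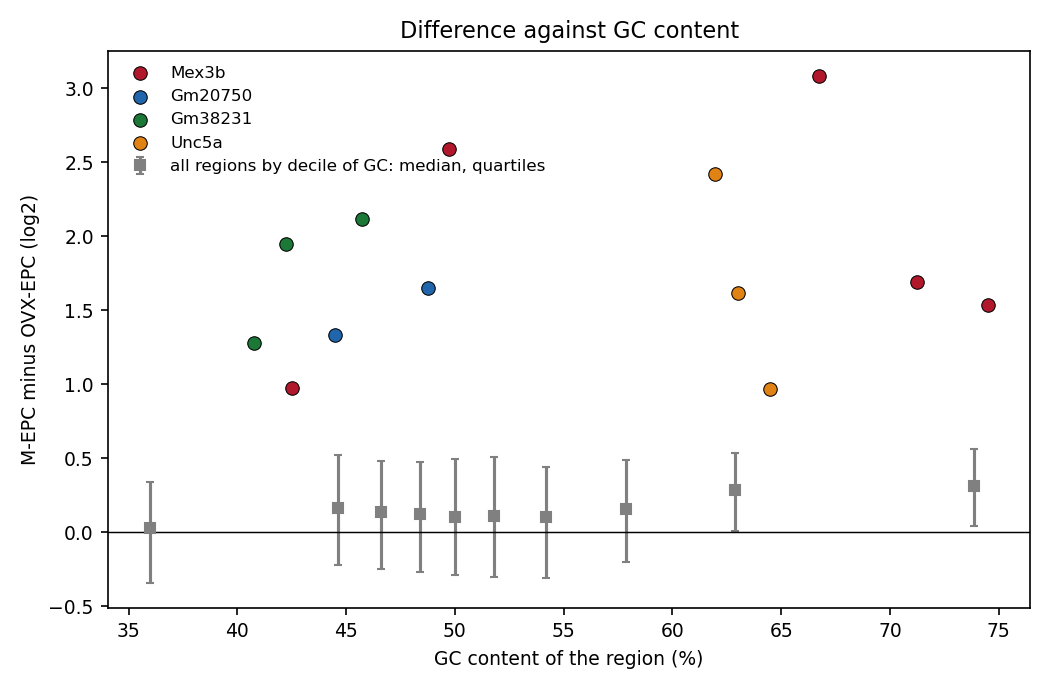
Log2 difference M-EPC minus OVX-EPC (y axis) against GC content in percent (x axis). Grey squares and bars give the median and quartiles of all tested regions in each decile of GC content, with medians of 0.03 in the lowest and 0.31 in the highest decile, and coloured points give the 13 tested regions of the 4 genes, which lie at 0.97 or above.

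The regions most like each lead region were taken as the 5 with the smallest root mean square difference of log2 normalized reads over the usable libraries. Over 6 libraries and 8694 other regions, the nearest to the Unc5a lead region was one named for Gm19026 (0.43), followed by a promoter region of Igtp (0.54), an interferon-inducible GTPase gene, and by regions of Card19, Unc5a itself and Syt2. The nearest to the Gm38231 lead region was one named for March10 (0.44), then Gm37030, Ccdc71l, Gm38231 itself and St6gal1, a sialyltransferase gene. For Gm20750, over 5 libraries, these were Slc23a2 (0.36), a vitamin C transporter gene, Masp1, 1700067P10Rik, Rmdn2 and Shisal1. For Mex3b, over 4 libraries and 19140 other regions, no region came closer than 0.73, the Gm38231 lead region, and those named after it included another Mex3b region, another Gm38231 region and a region of the class II histocompatibility gene H2-Aa. The nearest match of the Mex3b profile was further off than those of the other 3, over fewer libraries. These profiles hold the values that chose the genes, so nothing is read from this distance.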

How the data were processed

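Per the study's methods, the paired reads (25 bases kept) were mapped to mm10 with Bowtie2, duplicates (Picard) and mapping qualities under 10 were dropped, and MACS called peaks. The submitters' processing notes name BWA and MACS2. A mapping quality filter lowers counts in repeats. The deposited tables, 1 per pair of groups, hold the authors' normalized signal per region and library. Their log2 fold changes, p-values and adjusted p-values were not used. Multiplied by 1 factor per library, 100% of the signal values came out as whole reads (within 0.01).

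Differences came from limma 3.58.1 (R 4.3.3, trend = TRUE) on log2(value + 1), a scale that understates changes of low regions. Regions needed 10 or more in at least 2 of 4 libraries, and p-values were Benjamini-Hochberg adjusted over the whole table. F-EPC comparisons used the 26999 regions before both libraries ended. Alternatives included edgeR 4.0.16 and DESeq2 1.42.0 on recovered reads. Scripts were tested on simulated data. Sequence came from GRCm38.p6, gene models from GENCODE M21 and RefSeq. The genes, neighbours and lists were chosen with earlier results of these data known. The rule named every region of the 4 genes, the nearest region on each side, and from the neighbours and lists every called region and each listed gene's strongest promoter region. The other neighbours and the Ntn1 region were named after their values were seen. Of the regions most like the Mex3b lead region, 1 is not reported here.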

Additional observations from a re-analysis of the deposited data

Results flagged for a closer look

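F-EPC replicate 2 held 30 and 58 reads in the 2 Gm20750 regions, on a chromosome that no comparison with F-EPC used because F-EPC replicate 1 has no reads there. Both counts are above the 3 reads that a count of 0 allows. They are from 1 library, and no test was made.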

How the results depend on the processing

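Each of the 6 lead differences kept its sign under every alternative run (TMM factors, other pseudocounts, scaling by total reads in regions, removal of the GC trend, and leaving out each library). The lead regions were chosen for the size of these differences, which largely fixed the sign beforehand, so nothing is read from it. The 6 neighbour sums kept theirs with TMM factors, within 50 kb, within replicate numbers and without each library. Lead differences that moved by more than the spread between replicates were, with a pseudocount of 5, Gm20750 to 1.54 and Gm38231 to 1.68 against OVX-EPC, and Gm38231 to 2.24 and Unc5a to 1.89 against F-EPC, and, with TMM factors, Gm20750 to 1.49. Among the sums, Gm38231 moved to 1.34 (OVX-EPC) and 1.59 (F-EPC) within 50 kb, and Unc5a to 0.42 (F-EPC) with TMM factors. A higher pseudocount shrinks low values by construction. For the other shifts the cause was not tested.

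The count of neighbours called against F-EPC, 0 by limma, was 2 with edgeR, 1 with a pseudocount of 5, 3 with the GC trend removed, 1 with the replicate number as a block and 3 with the block and the GC trend removed. Leaving out single libraries gave 0 to 1 against F-EPC and 0 to 1 against OVX-EPC. The neighbours called were those of 5930403N24Rik and Hk3 described above and, against OVX-EPC, that of 4933406J10Rik. The cause was not tested. Over all regions tested against OVX-EPC, limma called 76, edgeR 152 and DESeq2 13. Against F-EPC, limma called 146 of all 8139 regions, edgeR 322 and DESeq2 8. The limma count was 242 with a pseudocount of 5 and 272 with the GC trend removed. It was 166 with the block and 347 with the block and the GC trend removed, so these settings raised the calls over all regions too. Libraries with the same replicate number did not deviate together (correlations of -0.02, -0.05 and -0.03), so the numbers were not taken as pairs. Among the neighbours, and among the lists against OVX-EPC, the block changed no other call. Over all regions tested it took the limma count from 76 to 103 against OVX-EPC and from 146 to 166 against F-EPC. Between OVX-EPC and F-EPC it took that count from 1 to 0. Only 12 of 29 neighbours passed the filter against OVX-EPC. The size of difference that this depth could show was not measured.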
